A study of Mus musculus with 12 samples.

Results

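Aplnr encodes the apelin receptor, a G protein-coupled receptor, and Apln encodes apelin, the secreted peptide that binds it. The pair was chosen by measured values, because Aplnr was strongly lower after radiation in these tumors. The values of Aplnr in the radiation comparisons are therefore a description and carry no test. Apln is in the pair as the ligand of Aplnr. The 2 genes are among the 18193 named on the array. Every probe set with either gene as its single symbol was taken, which gave 3 of 34945 such probe sets: 1438651_a_at and 1423037_at for Aplnr and 1451038_at for Apln. The Aplnr probe set with the higher mean, 1438651_a_at, is the one meant below unless the other is named.

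The material was 12 Lewis lung carcinoma (LLC) tumors, grown subcutaneously in female C57BL/6 mice (6 to 8 weeks old, right flank) and collected on day 19, with 3 tumors in each of 4 groups. The control group received 13C4, an isotype control antibody, and no radiation, and the 1D11 group received 1D11, an antibody that neutralizes TGF-beta, and no radiation. The radiation group received 13C4 with 5 fractions of 6 Gy, and the 1D11 with radiation group received 1D11 with 5 fractions of 6 Gy. A second field of the labels gives 2 Gy, so the fraction size is not settled. LLC is a single mouse cell line, and RNA came from unsorted tumor tissue that also holds host vessels, stroma and leukocytes. Fewer cells of a type and less RNA per cell therefore cannot be told apart. The labels do not say that each array is a separate mouse, and p-values measure only the spread between these samples.

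Apelin acts through its receptor mainly by coupling to inhibitory G proteins and by recruiting beta-arrestins. In blood vessels Aplnr is known chiefly from endothelial cells, above all in veins and in newly forming vessels, while Apln is known from endothelial tip cells and as a gene that responds to low oxygen. A second ligand, encoded by Apela, binds the same receptor.

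Intensities were taken as log2 of the deposited values. Array medians lay between 62.3 and 66.1 intensity units. Once sorted, no array departed from another by more than 0.129 on the log2 scale. By mean signal, the Aplnr probe sets 1438651_a_at and 1423037_at stood at percentiles 74.7 and 54.4 of all probe sets, and the Apln probe set at 75.2. Of 23 pan-endothelial markers, 20 were above the filter on low signal, and Tie1, Clec14a and Tal1 were not. Skeletal muscle genes varied widely between tumors, from a summed level of -1.50 to 2.12 (mean log2 deviation from the average tumor), and were highest in control replicate 1 and radiation replicate 3.

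Aplnr, the receptor, was lower in every irradiated tumor than in every tumor without radiation. In the control tumors its log2 intensity was 9.04, 8.68 and 8.96. In the 1D11 tumors it was 9.08, 9.23 and 9.15. Both sets without radiation were high, and the lowest 1D11 tumor lay only just above the highest control tumor. In the radiation tumors it was 7.83, 8.18 and 8.06. In the tumors given 1D11 and radiation it was 7.31, 7.65 and 7.52. These last were the lowest of the 12, and no value of theirs reached those of the radiation group.

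The group means of Aplnr were 9.16 ± 0.07 (SD, n = 3) in 1D11, 8.89 ± 0.19 in control, 8.03 ± 0.18 in radiation and 7.49 ± 0.17 in 1D11 with radiation. That is the order from high to low, and no neighbouring groups in it overlapped. On the linear scale the geometric means were 570.2, 476, 261 and 180.3 intensity units.

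**Figure D1:**
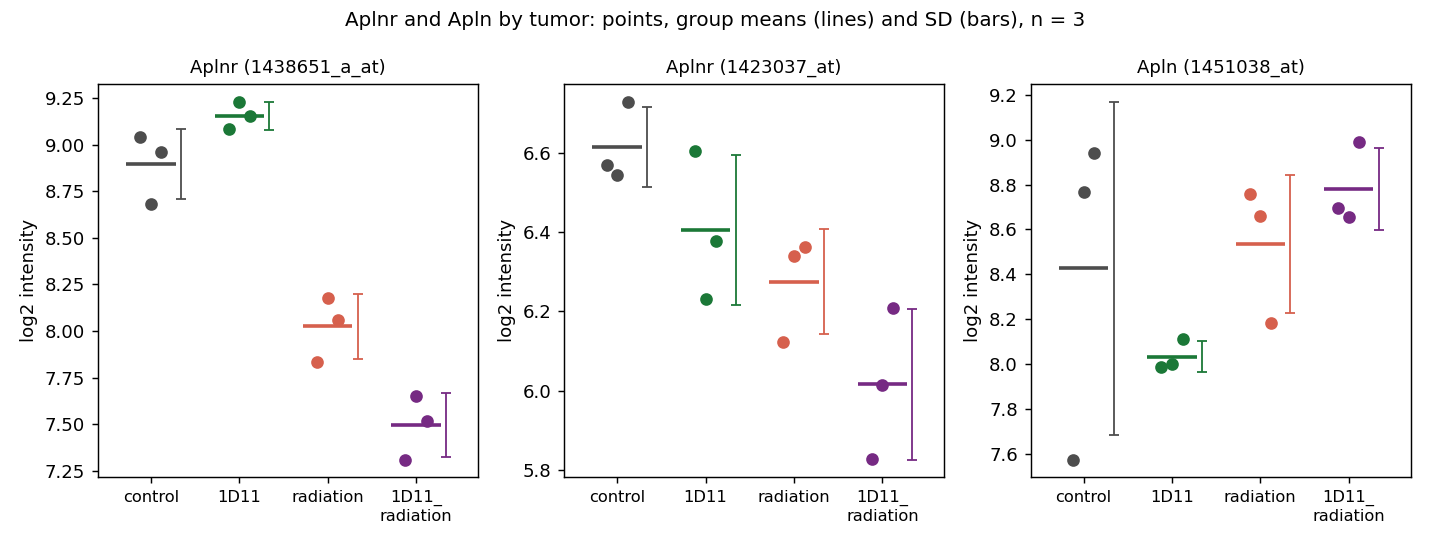
Log2 intensity of each tumor (points) with the group mean (line) and SD (error bar) for the Aplnr and Apln probe sets in the 4 groups of 3 tumors. Aplnr by 1438651_a_at lies at 8.68 or above without radiation and at 8.18 or below with it, while all 3 Apln values of the 1D11 group (8.11 or below) lie under those of both irradiated groups (8.18 or above).

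Under 13C4, Aplnr was lower with radiation by a log2 difference of -0.87 ± 0.12 (SE; 95% interval -1.14 to -0.60), which is 0.547-fold. Under 1D11 the difference was -1.66 ± 0.12 (-1.93 to -1.40), or 0.316-fold. Averaged over both antibodies it was -1.27 ± 0.09. From the most negative, these differences ranked 60 of 12735 tested genes under 13C4, 11 under 1D11 and 12 in the average. As a background, limma called 2.39% of genes in the first comparison, 0.0785% in the second and 7.26% in the average at a Benjamini-Hochberg adjusted p under 0.05. The 3 tumors of each group did not overlap in 20.6% of genes in the first comparison and 26.1% in the second. Nothing is read from these shares for Aplnr, since radiation is what it was chosen by.

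The antibody comparisons were not used in that choice. Without radiation, Aplnr was 0.26 ± 0.12 higher in 1D11 than in control tumors on the log2 scale (95% interval -0.01 to 0.53), with a limma adjusted p of 0.363. With radiation it was -0.53 ± 0.12 in 1D11 against 13C4 (-0.80 to -0.27), with a limma adjusted p of 0.840 and an unadjusted p of 0.00104. Neither difference passed the test. The 3 tumors of each group did not overlap in either comparison, which was also true of 19% of all genes without radiation and 13.4% with it. Limma called 0.0157% of genes in the first comparison and 0% in the second, where 688 genes had an unadjusted p under 0.05.

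The antibody difference of Aplnr thus had opposite signs without and with radiation. Averaged over both radiation states it was -0.14 ± 0.09 (limma adjusted p 0.514), in a comparison that called 0.00785% of genes. The difference between the antibody effects, which equals the difference between the radiation effects under 1D11 and under 13C4, was -0.79 ± 0.17 (95% interval -1.17 to -0.42; limma adjusted p 0.318, unadjusted p 0.000705). It did not pass, and nor did any gene (0% called, 952 with an unadjusted p under 0.05). With array weights it was -0.88 with a limma adjusted p of 0.0356. This quantity is built from the radiation differences of the same tumors by which Aplnr was chosen. No support is therefore drawn from its p-values. An antibody difference of opposite sign in the 2 radiation states, without overlap in either, was found in 81 of the 12735 genes (0.636%), Aplnr among them.

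The second Aplnr probe set, 1423037_at, gave smaller differences. Its log2 intensity was 6.57, 6.55 and 6.73 in control tumors and 6.61, 6.23 and 6.38 in 1D11 tumors. After radiation it was 6.12, 6.34 and 6.36 under 13C4 and 5.83, 6.01 and 6.21 under 1D11. It too was lower after radiation, by -0.34 under 13C4 and -0.39 under 1D11. In 1D11 against control, however, it was -0.21 ± 0.12 (limma adjusted p 0.495), opposite in sign to the main probe set, with overlapping groups. Its radiation effects under the 2 antibodies differed by only -0.05 ± 0.17 (limma adjusted p 0.980). The larger response under 1D11 and the opposite antibody signs were therefore seen with 1438651_a_at alone.

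Apln, the ligand, had a pooled within-group SD of 0.414, against 0.159 for its receptor, and of 0.200 against 0.156 without control replicate 1. In the 1D11 tumors the SD was 0.07 for both genes. In the control tumors the log2 intensity of Apln was 7.57, 8.77 and 8.94. In the 1D11 tumors it was 7.99, 8.00 and 8.11. Control replicate 1 was the lowest of the 12 tumors, and the other 2 controls were as high as the irradiated ones. In the radiation tumors Apln was 8.76, 8.66 and 8.18. In the tumors given 1D11 and radiation it was 8.69, 8.66 and 8.99. The means from high to low were 8.78 ± 0.18 (SD, n = 3) in 1D11 with radiation, 8.53 ± 0.31 in radiation, 8.43 ± 0.74 in control and 8.03 ± 0.07 in 1D11, and each neighbouring pair overlapped.

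No comparison of Apln passed the test. Radiation against control gave 0.11 ± 0.29 on the log2 scale (95% interval -0.53 to 0.75; limma adjusted p 0.885). Without control replicate 1 it was -0.32. Under 1D11, every irradiated tumor was above every tumor without radiation, and the difference was 0.75 ± 0.29 (0.11 to 1.39; limma adjusted p 0.248), or 1.68-fold. The groups also did not overlap in 26.1% of all genes in that comparison. Without control replicate 1, which is in neither group but enters the shared estimate of spread, its limma adjusted p was 0.0379. The average over both antibodies was 0.43 ± 0.21 (-0.03 to 0.88; limma adjusted p 0.233), and the difference between the 2 radiation effects was 0.64 ± 0.41 (-0.26 to 1.54; limma adjusted p 0.799). The 1D11 antibody gave -0.39 ± 0.29 without radiation (limma adjusted p 0.564; -0.82 without control replicate 1) and 0.25 ± 0.29 with it (limma adjusted p 0.898).

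**Figure D2:**
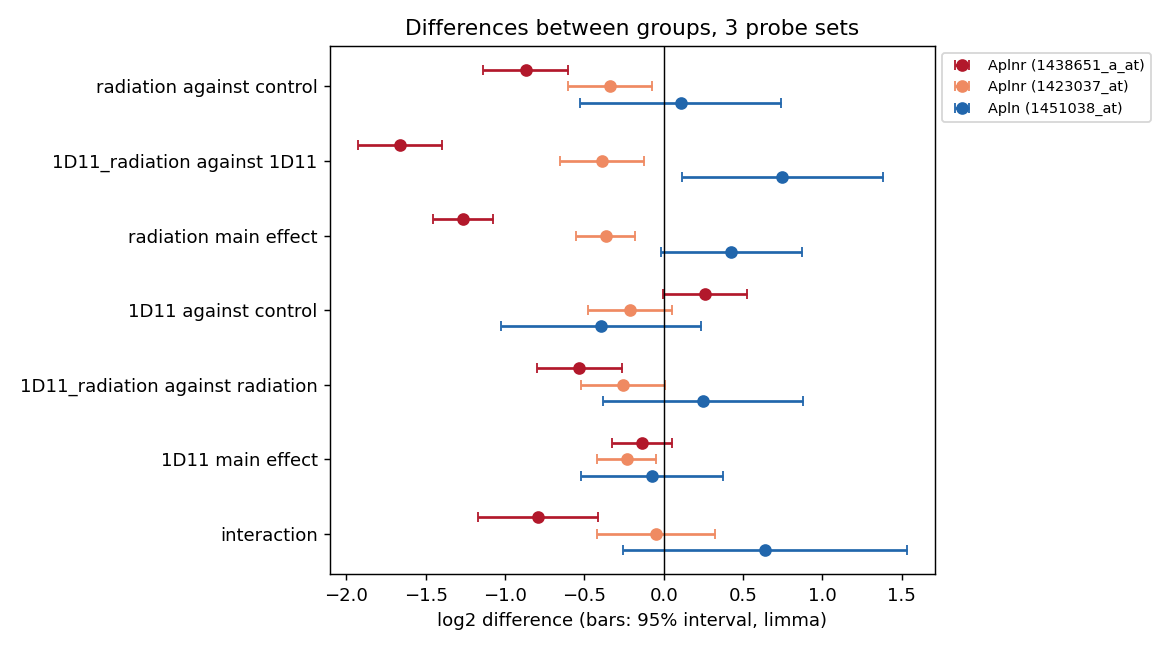
Log2 differences with 95% intervals for the members in each comparison, by limma over all 4 groups. Aplnr is at -0.87 and -1.66 by its main probe set in the 2 radiation comparisons it was chosen by, and the Apln interval excludes 0 only in 1D11 with radiation against 1D11 (0.75).

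Aplnr was then set against the vessel markers of the same tumors. The 20 pan-endothelial genes tested had a median radiation difference of -0.46 under 13C4, against -0.00 for all genes, with 19 of 20 lower. In the average over both antibodies 19 were lower with a median of -0.27, and 5 fell at an adjusted p under 0.05 by limma, against 3.87% of all genes called lower. That count was 12 without control replicate 1, the tumor high in muscle genes, and 3 to 5 without any other single tumor. Among them were Tek, the angiopoietin receptor (-0.70 ± 0.09, limma adjusted p 0.00305), and Vwf, which encodes von Willebrand factor (-0.82). Under 1D11 alone 15 of 20 were lower, against 57.6% of all genes, with a median of -0.13. None was called, in a comparison that called 0.0785% of all genes. Markers of pericytes and smooth muscle, the other cells of the vessel wall, were also mostly lower with radiation. Under 13C4 9 of 10 were lower with a median of -0.72, against 50.4% of all genes lower. Of these, 4 fell by limma, against 2.39% of all genes called in either direction. Pdgfrb, a growth factor receptor of pericytes (-2.05 ± 0.32, limma adjusted p 0.0139), and Rgs5 (-1.21 ± 0.20, limma adjusted p 0.0188) were among 3 of the 10 with a more negative difference than Aplnr. Under 1D11 8 of 10 were lower with a median of -0.19, none called and none as low as Aplnr by its main probe set. Some were below the other Aplnr probe set (-0.39), Rgs5 at -1.19 among them. The summed level of this list was 0.33 to 0.74 in control, -0.08 to 0.13 in 1D11, -0.27 to -0.18 in radiation and -0.50 to 0.01 in 1D11 with radiation (mean log2 deviation from the average tumor). The part of these cells in the Aplnr values was not tested.

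Under 13C4, Vwf (-1.41) and Cldn5, a tight junction gene (-1.17), were the 2 of 20 endothelial genes with a more negative difference than Aplnr. Under 1D11 none of the 20 was as low as Aplnr by its main probe set, the nearest being Tek at -0.74. The difference between the radiation effects was above 0 in 17 of the 20, with a median of 0.35. The lowest of them was Tek at -0.09, above the -0.79 of Aplnr. By these medians the endothelial list was less reduced by radiation under 1D11 than under 13C4, and Aplnr by its main probe set more so. The difference passed the test for none of these genes. The other Aplnr probe set, 1423037_at, gave -0.34 under 13C4, -0.39 under 1D11 and -0.05 for the difference between radiation effects. Tek was lower in each, at -0.66, -0.74 and -0.09. By that probe set Aplnr lay within the range of the endothelial genes.

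The mean of the 20 endothelial genes was taken from Aplnr, by its main probe set only, in each tumor. This gave 0.27 ± 0.47 (SD, n = 3) in control, 0.69 ± 0.21 in 1D11, -0.12 ± 0.20 in radiation and -0.85 ± 0.10 in 1D11 with radiation, relative to the average over the 12 tumors. The radiation difference of this quantity was -0.39 under 13C4 and -1.54 under 1D11. The control tumors were spread widely, at 0.79, -0.10 and 0.11. The tumors given 1D11 and radiation lay together, at -0.96, -0.79 and -0.79. For the antibody averaged over both radiation states it was -0.15, with a two-sided exact permutation p of 0.54 over 400 relabelings (the smallest possible is 0.005). The antibody difference was 0.42 without radiation and -0.73 with it. These opposite signs offset each other in the average, so the test does not address either state alone.

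Within a radiation state Aplnr did not rise with the endothelial mean. Over the 6 tumors without radiation Pearson's r was -0.679 (exact permutation p 0.131, adjusted 0.214) and Spearman's rho was -0.6. Over the 6 irradiated tumors r was -0.664 (exact permutation p 0.153, adjusted 0.214) and rho was -0.771. Without the 2 tumors farthest from the median endothelial mean, r was -0.933 and -0.858. These were among 7 relations computed, and each 6 holds both antibody groups.

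**Figure D3:**
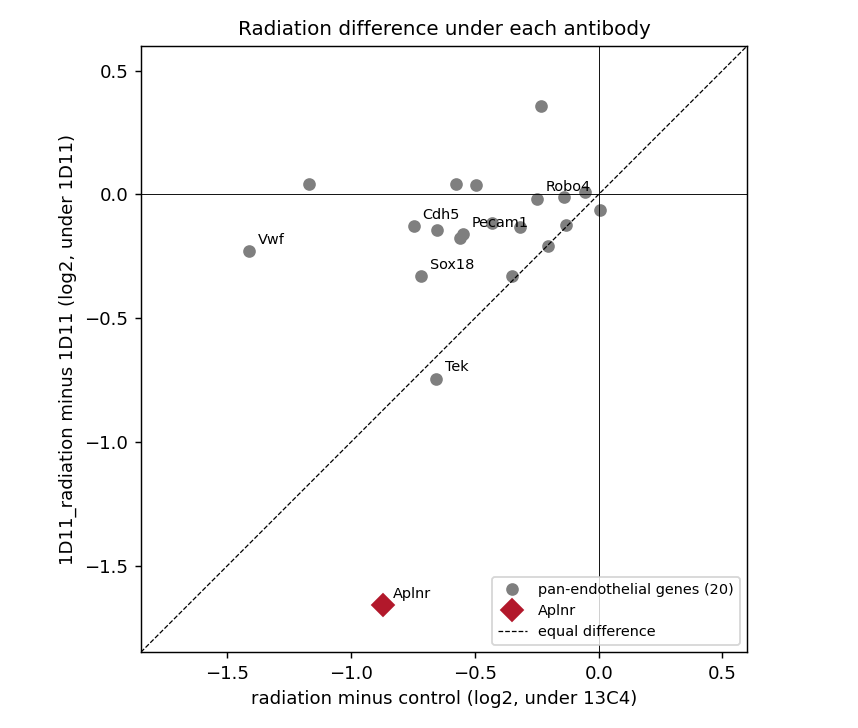
Log2 radiation difference under 13C4 (horizontal) and under 1D11 (vertical) for Aplnr and the 20 pan-endothelial genes tested. The dashed line marks an equal difference under both antibodies. Aplnr by its main probe set lies at -0.87 and -1.66, and the lowest endothelial gene under 1D11 is Tek at -0.74. The other Aplnr probe set gave -0.34 and -0.39.

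Among markers of veins, where the receptor is best known, 9 of 9 tested were lower with radiation in the average (median -0.16), against 54.7% of all genes lower and 3.87% called lower. Of these, 2 fell by limma, Il1r1, an interleukin-1 receptor (-0.41 ± 0.07, adjusted p 0.0108), and Vwf (adjusted p 0.0475). Selp, which encodes P-selectin, shared some signs with Aplnr but not all. It was 0.37 ± 0.16 in radiation against control (limma adjusted p 0.243), opposite in sign to Aplnr. It was 0.83 ± 0.16 in 1D11 against control and -0.59 ± 0.16 in 1D11 with radiation against 1D11, with a difference between radiation effects of -0.96 ± 0.22 (limma adjusted p 0.111, 0.124 and 0.380). It was picked out after its values were seen. Among arterial markers 10 of 11 were lower in the average with 3 called, against the same 54.7% and 3.87%, namely the matrix gene Fbln5 (-1.04), the Notch target Hey1 (-0.25) and the semaphorin and VEGF co-receptor Nrp1 (-0.32).

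Among 11 tested receptors and receptor partners for other vascular ligands, mostly peptides, 6 were lower and 5 higher with radiation in the average, and 2 fell by limma, against 3.87% of all genes called lower. Ramp2 and Calcrl, which together form the adrenomedullin receptor, were at -0.84 ± 0.12 (adjusted p 0.00582) and -0.45 ± 0.11 (adjusted p 0.0357). Ramp3, another partner of Calcrl, was at 0.47 ± 0.13 (limma adjusted p 0.0540), and Bdkrb2, a bradykinin receptor, at 0.51 ± 0.15 (limma adjusted p 0.0661). The list of tip cell markers, from which Apln itself was kept out, had 13 of 15 genes lower under 13C4 and 12 of 15 higher under 1D11 (median 0.14). In the average 1 of the 15 rose, Adm, which encodes adrenomedullin (0.94 ± 0.23, limma adjusted p 0.0327), against 3.39% of all genes called higher. Adm is also in the low-oxygen list described below. In 1D11 with radiation against 1D11 alone, Adm was at 1.30 (limma adjusted p 0.103) and Ramp2 at -0.47 (limma adjusted p 0.228), and neither passed.

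The rest of the apelin pathway showed few differences. Of 6 genes for ligand processing and the second ligand, 1 was tested, Furin, a protease that cuts propeptides (-0.03 ± 0.09 in the average over antibodies, limma adjusted p 0.893). Apela, Mme, Klkb1 and Pcsk1 were below the filter. Of 18 tested genes for G proteins, arrestins and downstream effectors, 9 were higher and 9 lower under 13C4. None was called there, against 2.39% of all genes called in either direction. Klf2, an endothelial transcription factor that responds to flow, was the 1 of 18 that fell in the average over antibodies (-0.66 ± 0.16, limma adjusted p 0.0347), and 1 in 18 is near the 3.87% of all genes called lower there. It was at -0.48 ± 0.23 under 13C4 and -0.84 ± 0.23 under 1D11 (limma adjusted p 0.289 and 0.130). Nos3, the endothelial nitric oxide synthase, was at -0.32 ± 0.08 under 13C4 (limma adjusted p 0.0550). Arrb2, which encodes a beta-arrestin, was at 0.30 ± 0.07 there (limma adjusted p 0.0576).

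Apln varied with the genes of the low-oxygen response. Over the 12 tumors its Pearson's r with 24 such genes had a median of 0.83, against -0.09 for all genes, and 20 of the 24 (83.3%) had r over 0.5 against 8.81% of all genes. With the group means removed the median was 0.85, against -0.05. Control replicate 1 is in that median, and without this tumor the pooled within-group SD of Apln was 0.200 instead of 0.414. The r values are descriptions, since all points share the same arrays. The highest were Bnip3, a mitochondrial autophagy gene (0.938), Pdk1, which restrains entry of pyruvate into mitochondria (0.926), Ero1a, an oxidase of the endoplasmic reticulum (0.924), and Ndrg1 (0.922). The lowest was Pfkfb4 at -0.735.

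Summed over the 24 genes, the low-oxygen list was at -0.41, 0.15 and 0.09 in control tumors and -0.35, -0.31 and -0.25 in 1D11 tumors (mean log2 deviation from the average tumor). It was at 0.29, 0.17 and 0.02 in radiation tumors and 0.20, 0.11 and 0.29 in those given 1D11 and radiation. The 4 low tumors, control replicate 1 and the 1D11 group, were also the 4 lowest for Apln. Since these stand apart from the other 8, the relation was tested only within the 6 irradiated tumors. There r was 0.894 (exact permutation p 0.00139, adjusted 0.00972 over 7 relations) and Spearman's rho was 1 (exact permutation p 0.00278, adjusted 0.0194). Both unadjusted p-values are the smallest that the 720 orders allow. The order holds near ties: list means of 0.289 and 0.290 (radiation replicate 1, 1D11 with radiation replicate 3). Apln was 8.659 and 8.656 in replicate 2 of radiation and of 1D11 with radiation. Without the 2 tumors farthest from the median, r was 0.937.

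Skeletal muscle genes moved the other way from Apln in these tumors. Their summed level was -0.07, 0.67 and 2.12 in radiation tumors and -0.95, 0.53 and -1.50 in those given 1D11 and radiation, with r of -0.913 against Apln (exact permutation p 0.0111, adjusted 0.0389; rho -0.886, adjusted exact permutation p 0.117). Without the 2 farthest tumors r was -0.458, so the relation rests on those tumors. The part of muscle tissue in the Apln values was not tested beyond the covariate fits given with the alternatives. Against pan-endothelial markers r was 0.342 (exact permutation p 0.504), and against tip cell markers 0.698 (exact permutation p 0.132). Against adipocyte markers r was -0.593 (exact permutation p 0.215). Without the 2 tumors farthest in each list, r was 0.712 for endothelial, -0.602 for tip cell and -0.935 for adipocyte markers.

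**Figure D4:**
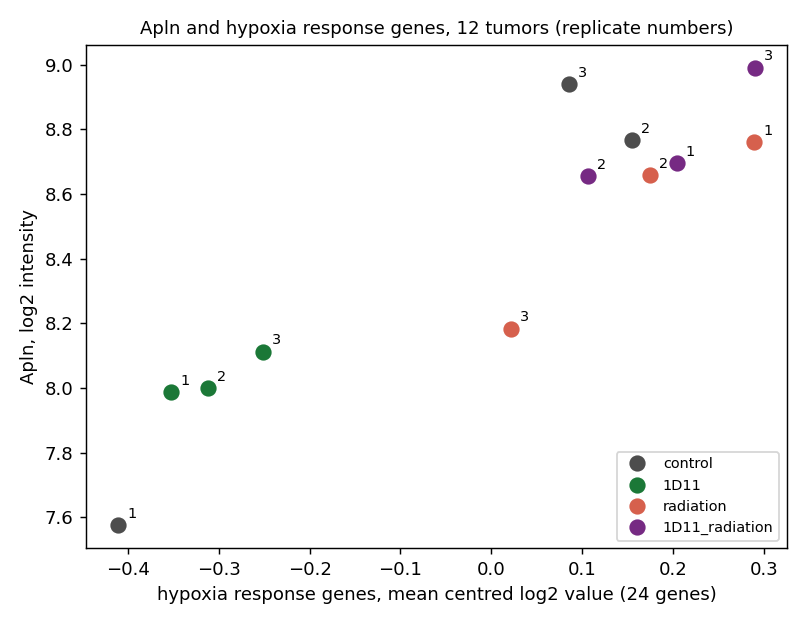
Apln log2 intensity against the mean of 24 low-oxygen response genes in each of the 12 tumors, coloured by group. Control replicate 1 and the 1D11 tumors lie at list means of -0.25 or below. The 6 irradiated tumors, the set tested, order both measures alike (rho 1), with near ties in each measure.

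The list itself differed with radiation. In the average over antibodies 22 of 24 genes were higher with a median of 0.33, and 10 rose by limma, against 3.39% of all genes called higher, among them the glycolytic genes Pgk1 (0.30 ± 0.05, adjusted p 0.0110) and Hk2 (0.36 ± 0.08, adjusted p 0.0238). Bnip3 rose by 0.65 ± 0.16 (limma adjusted p 0.0383) and Ero1a by 0.62 ± 0.16 (limma adjusted p 0.0383), while Pdk1 was at 0.45 ± 0.20 (limma adjusted p 0.204). The count was 2 without 1D11 replicate 2, radiation replicate 1 or either of replicates 1 and 3 of 1D11 with radiation, 3 without 1D11 replicate 3 or radiation replicate 2, 4 without 1D11 replicate 1 and 6 without replicate 2 of 1D11 with radiation. Without any of the other 4 tumors it was 9 to 14. Under 1D11 22 of 24 were higher, with a median of 0.48. None was called, in a comparison that called 0.0785% of all genes. In 1D11 against control 21 were lower, with a median of -0.25. Apln, at 0.43, 0.75 and -0.39 in the same comparisons, had the same signs as these medians.

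Because Apln and Bnip3 varied together, their promoters are shown side by side. Of the 2 members, Apln had a window in the RefSeq promoter table (GRCm38.p6). The 250 bases before each start are printed 5′ to 3′ on the gene's strand. Capitals mark ACGTG or GCGTG, the core letters bound by hypoxia-inducible factors, on either strand (CACGT and CACGC are the reverse complements, and neighbouring matches can overlap). Both genes lie on the minus strand, with the windows at chrX:48034854-48035103 for Apln and chr7:138909507-138909756 for Bnip3.
Apln: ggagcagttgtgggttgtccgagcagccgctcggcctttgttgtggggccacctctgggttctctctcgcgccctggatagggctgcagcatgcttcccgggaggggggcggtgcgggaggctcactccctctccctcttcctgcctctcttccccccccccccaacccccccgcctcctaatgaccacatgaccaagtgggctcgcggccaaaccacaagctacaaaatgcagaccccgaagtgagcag
Bnip3: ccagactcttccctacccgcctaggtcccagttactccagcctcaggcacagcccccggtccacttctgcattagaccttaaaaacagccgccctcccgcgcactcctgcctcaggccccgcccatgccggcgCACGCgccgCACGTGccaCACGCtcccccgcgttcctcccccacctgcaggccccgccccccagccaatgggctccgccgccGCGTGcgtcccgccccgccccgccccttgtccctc
The Apln window is 65.2% G or C and has 0 matches, and the Bnip3 window has 5. Either motif was present in 38.6% of all 32851 windows of this length, in 81.2% of 32 windows of the low-oxygen genes and in 28.6% of 14 windows of the pan-endothelial genes. A match is a description of letters, and none in this window says nothing of the factor.

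Over all 12734 other genes, those whose pattern across the 12 tumors was most like Aplnr were Timm10b (Pearson's r 0.949), Ntn1, which encodes the guidance molecule netrin-1 (0.935), Pagr1a (0.925), Macf1 (0.923) and Jade1 (0.921). With group means removed they were Sdk2 (0.926), Sesn1 (0.904), Rcbtb2 (0.899), Fmnl1 (0.896) and Cdkl1 (0.895), and no gene was in both sets of 5. Sdk2, Fmnl1 and Cdkl1 had low signal, at log2 values of 5.89 or below, near the filter level of 5.37. For Apln they were Bnip3 (0.938), Gramd4 (0.929), Smg6 (0.927), Pdk1 (0.926) and Ero1a (0.924). With group means removed they were Eif4g3 (0.994), St3gal6 (0.977), Bnip3 (0.976), Pkm, a pyruvate kinase (0.970), and 4930402H24Rik (0.968). Bnip3 was in both sets for Apln. Some of these likenesses depend on the probe set: with the mean over a gene's probe sets, r was 0.391 for Macf1, 0.396 for Sdk2, 0.452 for Sesn1, 0.634 for Smg6 and -0.054 for Eif4g3.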

How the data were processed

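RNA from 12 tumors was hybridised to Affymetrix mouse arrays, 1 array per sample. The deposited values are linear intensity per probe set. The authors' normalization is not given in the sources used here, and their sorted values nearly coincide between arrays. Log2 was taken with no further scaling. Of 45101 probe sets, 34945 had 1 gene symbol in the platform annotation, 932 several, 9160 none and 64 were controls. Per gene the probe set with the highest mean was used, and the lowest 30% of genes by mean were left out (12735 tested). Limma 3.58.1 in R 4.3.3 fitted the 4 group means, with Benjamini-Hochberg adjustment over all genes; a gene was called at an adjusted p under 0.05. It was tested on simulated data with independent noise in each gene and known shifts with radiation. That simulation held no differences in tissue content between tumors.

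The members and gene lists were chosen with earlier results of these data known. Named genes are all member probe sets, up to 4 genes of each list with the smallest p, and the 5 genes most alike by Pearson's r; exceptions are stated. Same-numbered replicates did not deviate together (r -0.31 to 0.27 over 18 pairs, 3 over 0.1), so no block was used. Alternatives changed the probe set, filter, offset, normalization, weights, samples, block and covariates. The number of arrays limits the precision.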

Additional observations from a re-analysis of the deposited data

Results flagged for a closer look

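The radiation effect on Aplnr differed between the antibodies by -0.79 on the log2 scale (1438651_a_at). The 3 tumors of each antibody lay apart in opposite directions without and with radiation. The limma test of this difference gave an adjusted p of 0.318, and the other Aplnr probe set, 1423037_at, gave -0.05. Aplnr was chosen by its fall with radiation in these same tumors, so the p-value is a description.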

How the results depend on the processing

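For Aplnr, the mean of both probe sets gave -0.61, -1.03 and -0.82 for radiation under 13C4, under 1D11 and on average, and the other probe set alone -0.34, -0.39 and -0.36. In 1D11 against control that probe set gave -0.21, reversing the sign. Array weights moved the difference between radiation effects to -0.88 (limma adjusted p 0.0356). Nothing is read from that p-value, since Aplnr was chosen by its fall with radiation. Aplnr with radiation in 1D11 against 13C4 kept its sign and stayed short of the threshold in 25 of 25 alternatives (limma adjusted p 0.0598 to 0.992).

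For Apln, radiation under 13C4 changed sign with array weights (-0.063) and without the 2 tumors highest in muscle genes (-0.14), ran from -0.32 to 0.36 with 1 tumor left out, and was 0.95 with the endothelial mean and 0.54 with the muscle genes as covariate (limma adjusted p 0.0996 and 0.132). Under 1D11 it passed the threshold with array weights (0.85), in a fit of only the groups compared (0.75), with the endothelial mean as covariate (0.96) and without the muscle-rich tumors (0.75); with 1 tumor left out it was 0.64 to 0.81. The average passed with the endothelial covariate (0.95), the muscle covariate (0.52) and without the muscle-rich tumors (0.30). In 1D11 against 13C4 with radiation it reversed with the endothelial (-0.10) or muscle covariate (-0.29), and the difference between radiation effects was 0.0089 with the endothelial covariate and reversed with the muscle covariate (-0.033). The 1D11 average ran from -0.29 to 0.055 with 1 tumor left out, changing sign without control replicate 2 or 3. Without the muscle-rich tumors, 1D11 against control passed at -0.82 (limma adjusted p 0.0192).

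The 10 low-oxygen genes called higher on average became 18 with array weights, 17 with the muscle covariate and 2 to 14 with 1 tumor left out. The 5 endothelial genes called lower became 3 with the lowest 50% of genes left out, 13 with array weights, 12 without the muscle-rich tumors and 3 to 12 with 1 tumor left out. With a replicate block the counts were 4 and 3, though the numbers did not pair the tumors. Removing the muscle-rich tumors and the muscle covariate were chosen with earlier results of these data known. The cause of these changes was not tested.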
